A study of Mus musculus with 12 samples.

Results

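Clock output genes carry the rhythm of the circadian clock into liver physiology, and 7 of them were examined here in livers of mice that lacked SIRT3 or were wild type. They are the bZIP factors Dbp, Tef and Hlf, the bZIP repressor Nfil3, the basic helix-loop-helix repressors Bhlhe40 and Bhlhe41, and the mitotic kinase Wee1. The members were taken by gene symbol, and each was measured by 1 probe set, so that 7 of the 19938 genes on the arrays are described. The livers came from 129Sv mice at 12 weeks of age, and RNA from each was hybridized to 1 of 12 Affymetrix arrays. The groups were SIRT3KO mice on the high-fat diet (KO high-fat), wild-type mice on the high-fat diet (WT high-fat), SIRT3KO mice on the standard diet (KO standard) and wild-type mice on the standard diet (WT standard), with 3 arrays each. The high-fat diet was a Western diet with 42% fat given from weaning, and all mice, controls included, had fasted for 24 h before they were killed. SIRT3 is a deacetylase of mitochondrial proteins; the labels do not say how the allele was made, which sex the mice were or at what time of day they were killed. The study asked how diet alters liver expression in these genotypes.

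The clock is a feedback loop in which the activators CLOCK and BMAL1 (gene symbol Arntl) bind E-boxes in DNA and drive the Per, Cry and Nr1d genes, whose products then repress the activators. The same E-boxes drive output genes. DBP, TEF and HLF, the PAR bZIP factors, activate genes through the D-box, among them enzymes of drug and lipid metabolism in liver, and NFIL3 represses genes through the same element. BHLHE40 and BHLHE41 bind E-boxes and oppose CLOCK and BMAL1, and WEE1 restrains the kinase CDK1 before mitosis. Transcripts of all these genes can cycle over the day in mouse liver, so that a level depends on the hour of sampling.

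Promoter windows of 300 bases, from 250 before to 50 after an annotated start, were found in RefSeq (GRCm38.p6) for 5 of the 7 members, namely Dbp, Tef, Hlf, Nfil3 and Bhlhe41. The E-box CACGTG, a palindrome, was present in the windows of Tef and Bhlhe41, and in 7.15% of all 32851 windows in the same table. The 3 windows with an E-box are shown because Tef and Bhlhe41 both differed between the diets. The Tef window with start site 1 lies at chr15:81802423-81802722 on the plus strand and that with start site 2 at chr15:81811164-81811463 on the plus strand. The Bhlhe41 window lies at chr6:145865371-145865670 on the minus strand. Each is written 5′ to 3′ with E-boxes and D-boxes in capitals.
Tef, start site 1: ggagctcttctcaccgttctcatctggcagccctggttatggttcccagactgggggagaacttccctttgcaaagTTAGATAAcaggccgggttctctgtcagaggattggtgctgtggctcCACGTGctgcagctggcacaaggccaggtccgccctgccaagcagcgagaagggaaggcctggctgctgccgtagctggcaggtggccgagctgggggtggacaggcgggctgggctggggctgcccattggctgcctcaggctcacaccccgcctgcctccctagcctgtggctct
Tef, start site 2: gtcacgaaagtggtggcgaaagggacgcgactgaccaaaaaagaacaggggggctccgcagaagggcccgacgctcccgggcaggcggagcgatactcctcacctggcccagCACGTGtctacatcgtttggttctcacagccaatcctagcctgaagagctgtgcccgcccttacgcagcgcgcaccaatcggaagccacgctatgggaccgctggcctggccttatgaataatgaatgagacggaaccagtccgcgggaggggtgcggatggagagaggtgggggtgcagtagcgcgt
Bhlhe41: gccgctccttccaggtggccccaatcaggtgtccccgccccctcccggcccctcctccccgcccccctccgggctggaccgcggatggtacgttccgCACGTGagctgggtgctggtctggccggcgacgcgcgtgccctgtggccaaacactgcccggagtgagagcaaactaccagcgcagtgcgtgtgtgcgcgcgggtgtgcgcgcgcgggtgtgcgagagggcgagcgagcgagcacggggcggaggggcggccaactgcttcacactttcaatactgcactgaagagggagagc
The E-box began at base -127 in the first Tef window, -138 in the second and -153 in that of Bhlhe41, counted from the start site. The D-box pattern TTANNTAA, searched on both strands, was found in the first Tef window (TTAGATAA at -174) and in 6% of all windows. The ROR core motif AGGTCA, on either strand, was found for Nfil3 (TGACCT at -12) and in 16.3% of all windows. The E-box variant CACGTT, on either strand, stood in no member's window and in 4.68% of all. The Dbp and Hlf windows held none of these 4 patterns, and matches are described only as letters in a window.

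Hepatocyte markers were high on every array, with a mean log2 level of 13.67 to 13.93 over the 5 measured. Sirt3, the targeted gene, had log2 values of 8.92, 8.49 and 8.87 in KO high-fat livers and 8.83, 8.94 and 8.95 in KO standard livers, against 9.29, 9.14 and 9.13 in WT high-fat and 8.97, 9.04 and 9.13 in WT standard livers. The files do not place its probes relative to the deleted part, so its signal does not check the genotype labels. The diets appear to have been normalized in separate runs: 335 probe sets had no value on any standard-diet array and had values on the high-fat arrays. The labels do not say so; if they were, a diet difference cannot be told apart from an offset between runs, whereas a genotype difference compares arrays of 1 diet. Among 1231 olfactory, vomeronasal and taste receptor genes, which serve here as a view of such an offset, 95% had a diet difference of at most 0.517 in the knockout and 0.546 in the wild type in size on the log2 scale, and the largest were 0.904 and 1.28. Of these receptor genes 7.64% were called between the diets in the knockout and 11.3% in the wild type, against 5.11% and 5.99% of all genes. Acute-phase genes had a mean log2 level of 11.77 on KO standard replicate 1, against 7.63 to 9.22 on the other 11 arrays. In whole liver, fewer cells of a type and less RNA per cell cannot be told apart.

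Between the diets, Dbp, Tef, Bhlhe41 and Wee1 were higher on the high-fat diet in both genotypes, by 1.69- to 3.47-fold. The hour at which each diet group was killed is not given, so a diet difference cannot be told apart from a difference in hour. Below, a gene that rose or fell was higher or lower on the high-fat than on the standard diet. Bhlhe40, Hlf and Nfil3 did not pass the test in either genotype, with differences between -0.54 and 0.82 on the log2 scale. In the knockout 4 of the 7 members were called higher and 0 lower at a Benjamini-Hochberg adjusted p under 0.05 in limma, where 2.45% of all genes were called higher and 2.66% lower. In the wild type the same 4 genes were called higher and 0 members lower, where 4.3% of all genes were called higher and 1.69% lower. The median log2 difference of the members was 0.96 in the knockout and 0.82 in the wild type, against -0.0101 and 0.0406 over all genes. Members with groups that do not overlap numbered 4 in the knockout, where 10.6% of all genes lay higher without overlap, and 5 in the wild type, where the share was 19.4%.

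**Figure D1:**
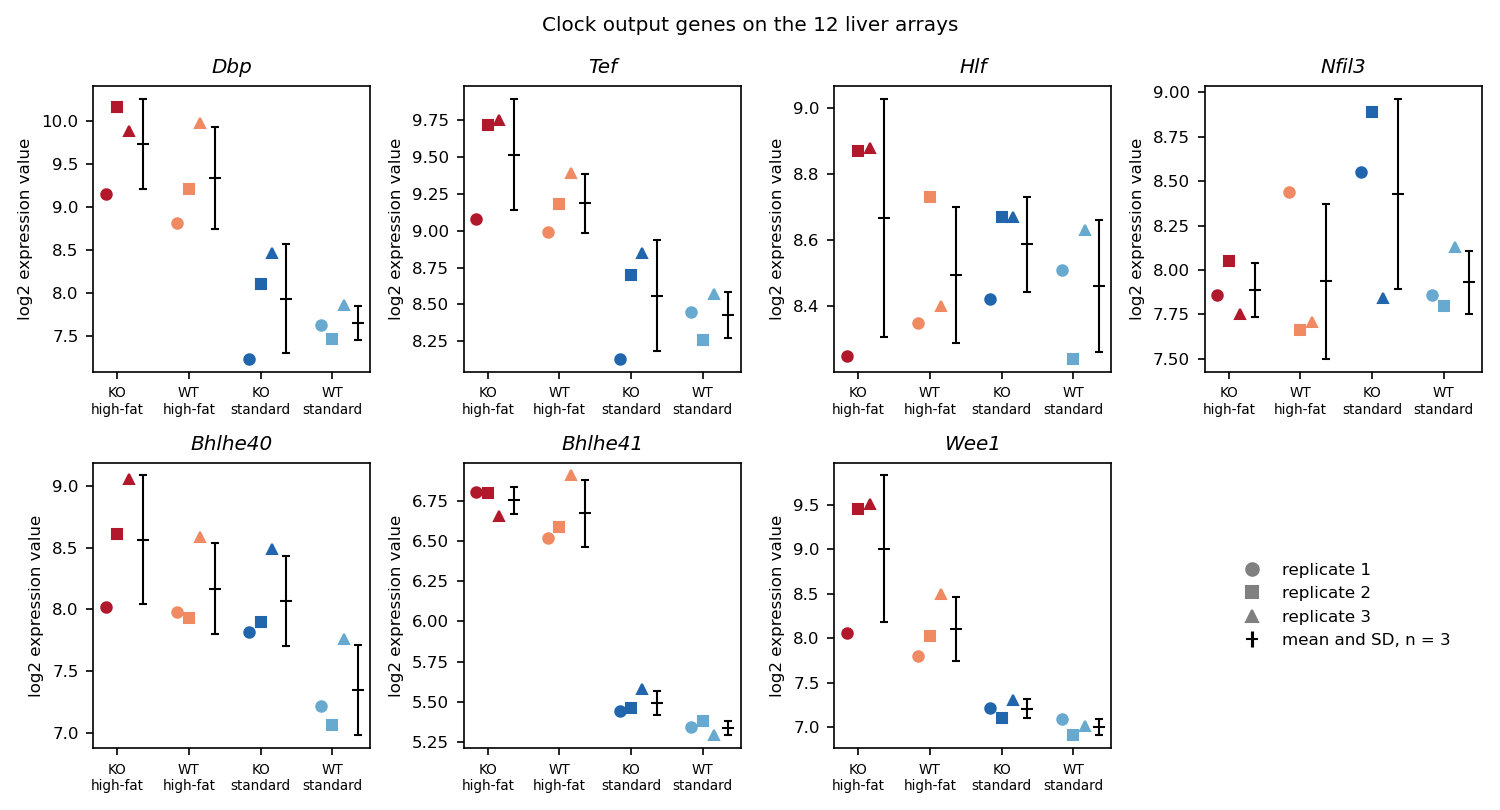
Log2 expression values (vertical axes, each with its own range) of the 7 genes in KO high-fat, WT high-fat, KO standard and WT standard livers, with 1 point per array and the mean and SD (n = 3) beside each group. All 6 high-fat arrays lie above all 6 standard-diet arrays for Dbp, Tef, Bhlhe41 and Wee1, whereas the groups of Hlf and Nfil3 overlap.

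Dbp encodes the activator with the widest daily swing of the PAR bZIP factors in rodent liver. Its log2 values were 9.15, 10.16 and 9.89 in KO high-fat livers, against 7.24, 8.11 and 8.47 in KO standard livers. They were 8.82, 9.21 and 9.98 in WT high-fat livers, against 7.63, 7.47 and 7.86 in WT standard livers. Every high-fat array lay above every standard-diet array, and the genotypes overlapped within each diet. Dbp rose 3.47-fold with the high-fat diet in the knockout (log2 difference 1.79, SE 0.322, limma adjusted p = 0.00659) and 3.21-fold in the wild type (1.68, SE 0.322, limma adjusted p = 0.00926). By size these differences ranked 8 and 13 of 19938 genes. The lowest value of all 12 arrays was that of KO standard replicate 1, the acute-phase array; without that array the knockout difference was 1.44 (adjusted p = 0.0233).

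Tef, which encodes another PAR bZIP activator, had log2 values of 9.08, 9.72 and 9.75 in KO high-fat livers and 8.13, 8.70 and 8.85 in KO standard livers. WT high-fat livers had 8.99, 9.18 and 9.39, against 8.45, 8.26 and 8.57 in WT standard livers. Again the diets did not overlap and the genotypes did. Tef rose 1.94-fold in the knockout (0.96, SE 0.193, limma adjusted p = 0.0125) and 1.69-fold in the wild type (0.76, SE 0.193, limma adjusted p = 0.0342). The wild-type call held under 17 of 26 alternatives and the knockout call under 22. Among the others, the wild-type call ended without any of the 6 wild-type arrays (adjusted p between 0.0611 and 0.126) and after median centring (0.0717). The knockout call ended without KO high-fat replicate 2 (0.0633) or 3 (0.0552).

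Hlf, the remaining PAR bZIP factor, passed the test in neither genotype. Its log2 values were 8.25, 8.87 and 8.88 in KO high-fat livers, against 8.42, 8.67 and 8.67 in KO standard livers, and 8.35, 8.73 and 8.40 in WT high-fat livers, against 8.51, 8.24 and 8.63 in WT standard livers. All neighbouring groups overlapped. The diet difference was 0.08 in the knockout (95% interval -0.27 to 0.42) and 0.03 in the wild type (-0.32 to 0.38), which leaves out a difference as large as that of Dbp. No test of Hlf against Dbp was made.

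Nfil3 encodes the repressor that competes for the D-box. Its log2 values were 7.86, 8.05 and 7.75 in KO high-fat livers and 8.55, 8.89 and 7.84 in KO standard livers. WT high-fat livers had 8.44, 7.66 and 7.71, against 7.86, 7.80 and 8.13 in WT standard livers. The high values came from KO standard replicates 1 and 2 and WT high-fat replicate 1, and every pair of neighbouring groups overlapped. The diet difference was -0.54 in the knockout (SE 0.233, limma adjusted p = 0.193) and 0.01 in the wild type (SE 0.233, limma adjusted p = 0.988). Without KO standard replicate 3 the knockout difference was -0.84 and passed the test (adjusted p = 0.0285).

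Of the E-box repressors, Bhlhe41 had the smallest spread between replicates, with SDs of 0.0461 to 0.207. It stood at 6.81, 6.80 and 6.66 in KO high-fat livers, against 5.44, 5.46 and 5.58 in KO standard livers. The values were 6.52, 6.59 and 6.91 in WT high-fat livers, against 5.34, 5.38 and 5.29 in WT standard livers. The gap between the diets was wider than the whole range of any group. Bhlhe41 rose 2.40-fold in the knockout (limma adjusted p = 3.08e-05) and 2.52-fold in the wild type (limma adjusted p = 1.55e-05), and these were the smallest p-values among the members. Its probe set is dim: its mean over the 12 arrays was 6.06, with 34.6% of genes lower, and its standard-diet values lay below the array medians of 6.34 to 6.47.

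Bhlhe40 varied more within groups. Its log2 values were 8.02, 8.61 and 9.06 in KO high-fat livers and 7.82, 7.90 and 8.49 in KO standard livers, which overlap. WT high-fat livers had 7.98, 7.93 and 8.59, all above the 7.22, 7.06 and 7.76 of WT standard livers. The diet difference was 0.49 in the knockout (SE 0.26, limma adjusted p = 0.291) and 0.82 in the wild type (SE 0.26, limma adjusted p = 0.0758). Of the 12 fits without 1 array, only that without KO high-fat replicate 1 called the wild-type difference (adjusted p = 0.0475), and the knockout difference was 0.76 without that array and 0.25 without KO high-fat replicate 3.

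Wee1 had log2 values of 8.06, 9.45 and 9.51 in KO high-fat livers, against 7.22, 7.10 and 7.31 in KO standard livers. WT high-fat livers had 7.80, 8.02 and 8.50, against 7.09, 6.91 and 7.01 in WT standard livers. On the standard diet the arrays lay close together, with SDs of 0.105 and 0.0875 (n = 3 each), while on the high-fat diet the SDs were 0.822 and 0.359. Wee1 rose 3.46-fold in the knockout (1.79, SE 0.284, limma adjusted p = 0.00373) and 2.14-fold in the wild type (1.10, SE 0.284, limma adjusted p = 0.0367). The wild-type call held under 15 of 26 alternatives. Among the others, it ended without any of the 6 wild-type arrays (adjusted p between 0.0619 and 0.115), with robust moderation (0.0934) and after median centring (0.0615).

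**Figure D2:**
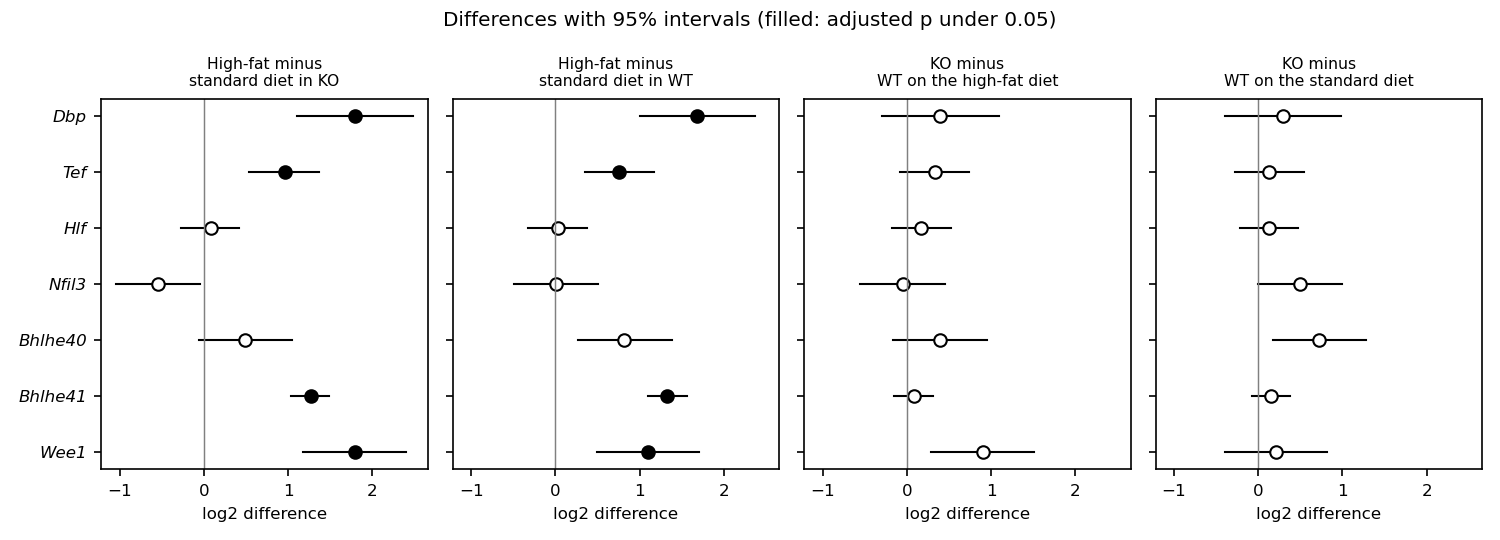
Log2 differences (horizontal axes) of the 7 genes with 95% intervals from limma, for the high-fat against the standard diet in each genotype and for the knockout against the wild type on each diet; filled points passed an adjusted p under 0.05. Dbp, Tef, Bhlhe41 and Wee1 are filled in both diet panels, and no point is filled in the genotype panels.

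None of these diet calls held when the error of every gene was widened by an SD of 0.215 to allow for a run offset, a setting that left 0.0251% of all genes called in the knockout and 0.0351% in the wild type, so that 0 of 7 is near the share of all genes. Bhlhe41 then had limma adjusted p = 0.148 in the knockout and 0.123 in the wild type, and Dbp 0.29 and 0.506. In the knockout the differences of Dbp, Tef, Bhlhe41 and Wee1 were each larger in size than that of any of the 1231 receptor genes. In the wild type this held for Dbp and Bhlhe41 and not for Tef and Wee1. Whether an offset has the same size in the receptor genes and in the members was not tested.

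Between the genotypes no member passed the test on either diet. On the high-fat diet limma called 0 of the 7 members (1 at an unadjusted p under 0.05), as it called 0% of all genes. The knockout values ran higher for 6 of the 7, with a median log2 difference of 0.33 against -0.0178 over all genes. Groups overlapped for every member, where 6.69% of all genes did not overlap. The largest difference was that of Wee1, at 0.90 (95% interval 0.29 to 1.51, limma adjusted p = 1), which ranked 5 of 19938 genes by size. KO high-fat replicate 1 lay at 8.06, within the wild-type range of 7.80 to 8.50, and the other knockout arrays lay above it. Without that array the Wee1 difference was 1.37 and it was the 1 gene called of all genes (adjusted p = 0.0159). Dbp stood at 0.40 (-0.29 to 1.09), Bhlhe40 at 0.39 (-0.16 to 0.95), Tef at 0.33 (-0.08 to 0.74), Hlf at 0.17 (-0.17 to 0.52), Bhlhe41 at 0.08 (-0.15 to 0.31) and Nfil3 at -0.05 (-0.55 to 0.45). These values moved with single arrays. Dbp was 0.14 without WT high-fat replicate 1 and 0.72 without WT high-fat replicate 3. Bhlhe40 was 0.67 and Tef 0.55 without KO high-fat replicate 1, and they were 0.15 and 0.21 without KO high-fat replicate 3. Hlf ranged over 0.07 to 0.38 and Bhlhe41 over 0.01 to 0.20 with 1 array left out.

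On the standard diet limma again called 0 of the 7 members (2 at an unadjusted p under 0.05), where 0.00502% of all genes were called. All 7 values ran higher in the knockout, with a median of 0.21 against 0.0378 over all genes. Bhlhe40 had the largest, 0.72 (0.17 to 1.28, limma adjusted p = 0.502), and its lowest knockout array, at 7.82, lay above the highest wild-type array, at 7.76. Bhlhe41 (0.15) and Wee1 (0.21) also had groups that do not overlap, so that 3 of the 7 members lay higher without overlap, against 9.88% of all genes. In this comparison 95% of the 1231 receptor genes had a difference of at most 0.364 in size, and the largest was 0.659. Bhlhe41 and Wee1 lay within that 95% range and Bhlhe40 above the largest. Nfil3 stood at 0.50 (0.00 to 1.00, limma adjusted p = 0.513), Dbp at 0.29 (-0.40 to 0.98), Tef at 0.13 (-0.28 to 0.54) and Hlf at 0.13 (-0.22 to 0.47). The acute-phase array of this group held neither the highest nor the lowest knockout value of Nfil3, and it held the lowest of Dbp, Tef, Hlf, Bhlhe40 and Bhlhe41. Without it Bhlhe40 was 0.85, Dbp 0.64, Nfil3 0.44, Tef 0.35, Hlf 0.21, Wee1 0.20 and Bhlhe41 0.18, and no member was called. Without KO standard replicate 3, Dbp was 0.02 and Tef -0.01, and with 1 array left out Hlf ranged over 0.02 to 0.21 and Nfil3 over 0.27 to 0.79.

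The diet difference did not pass a test of change with genotype for any member: the interaction called 0 of 7 (0 at an unadjusted p under 0.05), and 0% of all genes. For Wee1 the diet difference was larger in the knockout by 0.69 (95% interval -0.17 to 1.55), and for Nfil3 it was -0.55 (-1.26 to 0.15). The Wee1 value was 1.17 without KO high-fat replicate 1 and 0.44 without KO high-fat replicate 3, and that of Nfil3 -0.85 without KO standard replicate 3 and -0.30 without WT high-fat replicate 1. The intervals of Dbp (-0.86 to 1.08), Tef (-0.39 to 0.78), Hlf (-0.44 to 0.54), Bhlhe40 (-1.11 to 0.46) and Bhlhe41 (-0.39 to 0.26) also included 0.

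Within groups, several members deviated in the same direction on the same array. On KO high-fat replicate 1 the deviation from the group mean was -0.95 for Wee1, -0.58 for Dbp, -0.54 for Bhlhe40, -0.44 for Tef and -0.41 for Hlf, while Bhlhe41 and Nfil3 lay within 0.05 of theirs. On WT high-fat replicate 3 Dbp (0.65), Bhlhe40 (0.43), Wee1 (0.39), Bhlhe41 (0.24) and Tef (0.21) were above the group mean. Hlf (-0.09) and Nfil3 (-0.22) were below theirs on that array. On KO standard replicate 1 Dbp (-0.71) and Tef (-0.43) were low, and on KO standard replicate 3 Dbp (0.53), Bhlhe40 (0.42) and Tef (0.29) were high and Nfil3 (-0.59) was low.

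**Figure D3:**
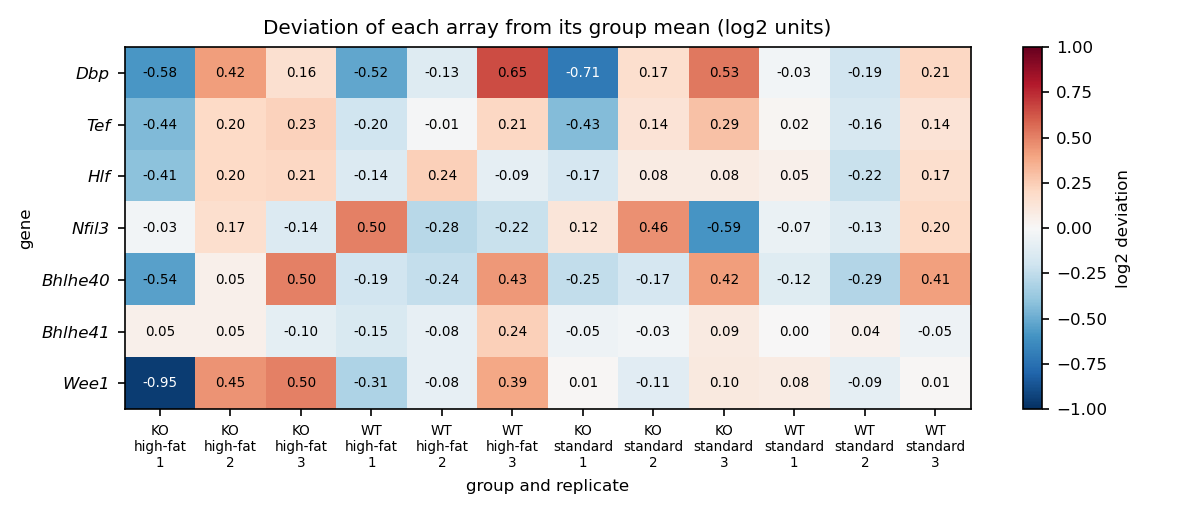
Deviation of each array from the mean of its own group in log2 units, with the 7 genes as rows and the 12 arrays as columns (group and replicate); red is above and blue below the group mean. Dbp and Tef share their sign on 11 of the 12 arrays, and KO high-fat replicate 1 is low for Wee1, Dbp, Bhlhe40, Tef and Hlf.

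Because the diets form separate clusters, relations were computed within each diet over 6 arrays, for 56 pairs of genes in all. Each set of 6 holds both genotypes and their means were not removed, so a genotype difference enters these values. On the standard diet Dbp and Tef put the 6 livers in the same order (Pearson r = 0.99, exact permutation p = 0.00278; Spearman rho = 1, exact permutation p = 0.00278; adjusted over the family 0.0778 and 0.156). Without the 2 arrays farthest from the median Dbp value r was 0.98. On the high-fat diet r was 0.91 (exact permutation p = 0.0278, adjusted 0.253) and rho 0.83 (exact permutation p = 0.0583, adjusted 0.251), with r = 0.82 without the 2 farthest arrays. Tef and Wee1 on the high-fat diet had r = 0.99 (exact permutation p = 0.00417, adjusted 0.0778) and rho = 0.94 (exact permutation p = 0.0167, adjusted 0.156), with r = 0.96 without the 2 farthest. No pair passed after adjustment. With 6 arrays the smallest possible exact permutation p is 0.00139 for Pearson r and 0.00278 for Spearman rho. Neither passes for a single pair among 56. The missed threshold therefore does not show that pairs were unrelated. Arntl, the activator that peaks out of phase with Dbp in mouse liver, ran against Dbp on the high-fat diet, with r = -0.94 (exact permutation p = 0.00972, adjusted 0.136), rho = -0.94 (exact permutation p = 0.0167, adjusted 0.156) and r = -0.96 without the 2 farthest arrays. On the standard diet r was -0.81 (exact permutation p = 0.0514, adjusted 0.253) and rho -0.83 (exact permutation p = 0.0583, adjusted 0.251). Without the 2 farthest arrays r was -0.11. Those 2 held the lowest and the highest Dbp value, so leaving them out also narrows the range of Dbp. Whether the relation rests on them cannot be told from this fall.

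**Figure D4:**
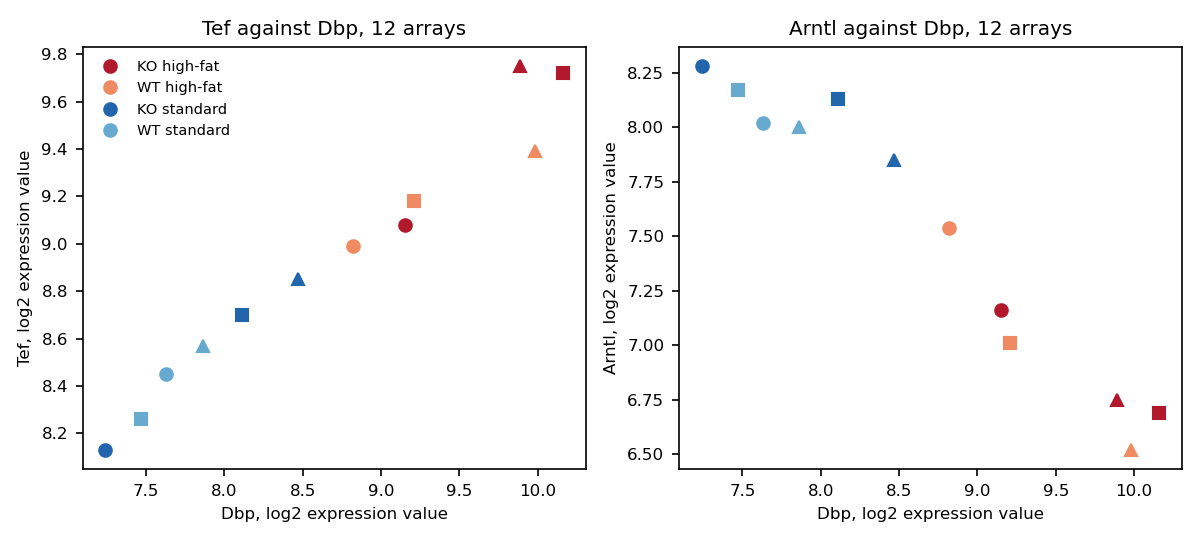
Log2 expression values of Tef (left) and Arntl (right) against those of Dbp on the 12 arrays, with the groups by colour and the replicates by marker shape (circle, square and triangle for 1, 2 and 3). Tef climbs and Arntl declines as Dbp climbs, and KO high-fat replicate 1 (Dbp 9.15) lies among the WT high-fat livers.

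The genes whose pattern over all 12 arrays was most like each member were ranked by Pearson r among 4378 genes with an SD of at least 0.2, and the diet gap enters that value. For Dbp they were Tef (0.982), Aldh7a1 (0.971) and Dynll2 (0.97). For Tef they were Dbp, the clock repressor Per3 (0.976) and Ppara (0.973), the nuclear receptor that directs fatty acid oxidation. Ppara also led for Bhlhe40 (0.914), followed by Ppargc1b and Cct6b (0.886 each). Hlf was most like Syde2 (0.959), Ppp1r3b (0.901) and Tmem19 (0.9), Nfil3 like Pudp (0.913), Tspan10 (0.9) and Synb (0.893), and Wee1 like Mettl7a1 (0.974), Ngef (0.969) and Fnip2 (0.966). After the group means were removed, r was 0.959 for Dbp with Dynll2 and for Tef with Ppara, and 0.981 for Hlf with Syde2. The genes were chosen by r over the same 12 arrays, which favours a high r here, so these values are no separate check. Bhlhe40 then had r of 0.878 with Ppara, 0.697 with Ppargc1b and 0.715 with Cct6b. The nearest genes of Bhlhe41 were Nhlh1 (0.983), Fzd10 (0.983) and Adam11 (0.979). Once the group means were removed, their r was -0.065, 0.69 and -0.047.

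Of 3 activators measured, Arntl fell in the knockout (-1.22, SE 0.201, limma adjusted p = 0.00453) and in the wild type (-1.04, SE 0.201, limma adjusted p = 0.00948), and Clock and Rora were not called. These list values, here and below, compare the high-fat with the standard diet without the allowance for a run offset. Of all genes, 2.45% were called higher and 2.66% lower in the knockout, and 4.3% and 1.69% in the wild type. Of 8 repressors, 4 rose in the knockout and 2 in the wild type, with medians of 0.75 and 0.55. Per3 (1.10 and 0.90) and Cry2 (0.48 and 0.54) rose in both, and Nr1d2 (0.85) and Per2 (0.84) were called in the knockout. In the wild type Nr1d2 stood at 0.60 and Per2 at 0.56 without a call. Of 4 clock kinases and ubiquitin ligase parts, 0 were called in the knockout, where Fbxl21 stood at 0.26, and Fbxl21 rose in the wild type (0.41). Cry2 and Fbxl21 lay within the 95% range of the receptor genes (0.517 and 0.546).

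Of 7 measured genes reported to depend on PAR bZIP factors in mouse liver, 2 rose and 0 fell in the knockout, and 1 rose and 1 fell in the wild type, with medians of 0.33 and 0.22. The carboxylesterase Ces2e rose in both (0.46 and 0.34). Cyp2c50 rose in the knockout (0.46) and stood at 0.22 in the wild type. Ces2e and Cyp2c50 lay within the 95% range of the receptor genes. The cytochrome P450 gene Cyp2b10 fell in the wild type (-1.23) and stood at -0.94 in the knockout. Of 9 other clock-controlled liver genes, Tspan4 rose (0.53) and Insig2, which holds back sterol synthesis, fell (-0.79) in the knockout. In the wild type 0 were called, with Tspan4 at 0.36 and Insig2 at -0.45.

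Of 10 measured cell cycle genes, 0 were called in either genotype, with medians of -0.02 in the knockout and 0.12 in the wild type. The proliferation marker Mki67 stood at 0.36 and 0.43 in that order, Cdc25c, a phosphatase that opposes WEE1, at -0.17 in the knockout, and Cdk1, the kinase that WEE1 restrains, at 0.33 in the wild type. Of 8 glucocorticoid and fasting response genes, 0 rose and 1 fell in the knockout, Igfbp1, which insulin lowers (-1.51), and 0 were called in the wild type; their medians were -0.58 and -0.12. In the wild type Fkbp5 stood at -1.13 and Igfbp1 at -1.02 without a call, and in the knockout Fkbp5 stood at -0.83. Of the 8 differences, 8 lay below 0 in the knockout and 7 in the wild type. Per1, which glucocorticoids induce, stood at -0.03 and 0.03. In the genotype comparisons and the interaction 0 genes of these lists were called. Among 4 endothelial markers only Stab2 rose, in both genotypes (0.41 and 0.39), while Kdr stood at -0.05 in both. Of 3 lymphocyte genes, Cd3e (0.45) and Cd79a (0.57) rose in the wild type and Nkg7 stood at 0.02. In the knockout Cd3e stood at 0.07 and Cd79a at 0.19. Stab2 and Cd3e lay within the 95% range of the receptor genes (0.517 and 0.546), and Cd79a was dim (wild-type means 5.09 and 4.52). Mean lymphocyte marker levels were 5.75 to 6.03 in WT high-fat against 5.52 to 5.63 in WT standard livers. The part of these cells in the member values was not tested.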

How the data were processed

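Liver RNA was measured on 12 arrays. The deposited values are log2 expression values, which the authors obtained by RMA (Affymetrix Expression Console), per the submitters' processing notes; version and options are not given in the sources used here. RMA corrects background, equalizes the arrays of a run and summarizes probes, so values are relative within a run; whether both diets shared 1 run is not given in the sources used here. Array medians were 6.34 to 6.47, and the number of arrays limits precision. Of 35557 probe sets, 21789 had 1 gene symbol, 1621 several and 12147 no entry in the probe annotation table; the set with the highest mean was kept for each of 19938 genes. Symbols were updated through 21698 Entrez matches.

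Group means were estimated from the 12 arrays together in limma 3.58.1 (R 4.3.3) with an intensity trend, and p-values were Benjamini-Hochberg adjusted over all genes; the fit was tested on simulated data. Nothing in the labels ties a replicate to a separate litter or day. The 7 members, the gene lists and the rule for named genes (all members, up to 4 called genes per list or the 2 of smallest p, the 3 nearest genes by Pearson r) were chosen with earlier results of these data known. Alternatives were moderation settings, array weights, a fit of 2 groups, a replicate block, a filter on dim genes (mean under 5), all probe sets, 3 scalings, other thresholds, omitted arrays and the offset variance, estimated from the covariance of both diet differences over 1231 receptor genes. Exact permutation tests were two-sided. Figures were drawn with matplotlib 3.10.9.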

Additional observations from a re-analysis of the deposited data

How the results depend on the processing

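The count of members called in the diet comparisons depended on single arrays and on the allowance for an offset between runs. In the knockout, 4 members and 5.11% of all genes were called, 3 to 5 members (1.81% to 6.45% of all genes) without 1 array and 0 (0.0251%) with the offset variance. In the wild type, 4 members and 5.99% of all genes were called, 2 to 5 (1.95% to 6.63%) without 1 array, 2 (2.92%) with all probe sets, 2 (5.23%) after median centring and 0 (0.0351%) with the offset variance. Between genotypes on the high-fat diet the count was 0 to 1 without 1 array, the 1 being Wee1 without KO high-fat replicate 1, and on the standard diet and for the interaction 0 under every alternative run. Dbp and Bhlhe41 kept both diet calls under 25 of 26 alternatives, the exception being the offset variance. Bhlhe40 passed in the wild type with array weights (adjusted p = 0.0211) and in a fit of the 2 groups compared (0.0403), and that fit ended the knockout call of Tef (0.0534). Array weights called 10.1% of all genes in the knockout and 18.2% in the wild type, and the fit of 2 groups 1.91% and 6.42%. In the knockout, 2.5% were called with all probe sets, 7.68% with quantile normalization and 7.62% with cyclic loess.

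Directions turned only for differences near 0 that no fit called. After median centring the wild-type diet difference was -0.05 for Hlf and -0.07 for Nfil3, and with array weights -0.03 for Hlf. The Bhlhe41 interaction was 0.05 with array weights, 0.03 with quantile normalization, 0.03 after median centring and 0.04 with cyclic loess. Without KO standard replicate 1 and WT high-fat replicate 3, which had the highest acute-phase levels (11.77 and 9.22), it was 0.02, the Hlf interaction was -0.08, and the knockout diet difference of Hlf was -0.01. Without 1 array the ranges that crossed 0 were -0.19 to 0.20 for Nfil3 between genotypes on the high-fat diet, -0.01 to 0.35 for Tef between genotypes on the standard diet, -0.09 to 0.11 and -0.24 to 0.15 for Hlf and Nfil3 between diets in the wild type, -0.03 to 0.28 for Hlf between diets in the knockout, and, for the interaction, -0.14 to 0.05 (Bhlhe41), -0.24 to 0.43 (Dbp), -0.06 to 0.25 (Hlf) and -0.02 to 0.41 (Tef).

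Whether the replicate numbers pair the arrays could not be decided, because differently numbered arrays were not compared. Same-numbered arrays of different groups had deviations correlated at -0.271 to 0.407 over genes, and 5 of 18 pairs exceeded 0.1. For replicate 3, KO high-fat correlated with KO standard at 0.407 and with WT standard at 0.306. The 2 standard-diet groups correlated at 0.288 for that number. With the number as a replicate block, 5 members were called in each genotype between the diets (with 5.14% of all genes in the knockout and 5.81% in the wild type), Bhlhe40 joining at 0.49 in the knockout (adjusted p = 0.04) and 0.82 in the wild type (0.00483), and no other member call changed. A fit of the 2 groups compared gives no interaction, which needs all 4. With 3 arrays a group, a missed threshold does not show that livers were alike.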
